A study of Rattus norvegicus with 24 samples.

Results

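The S100 genes encode small proteins of a calcium-binding family. The 9 described here in rat blood were S100a8, S100a9, S100a11, S100a10, S100a4, S100a6, S100a13, S100a1 and S100b. They were taken as every non-control probe of the array whose gene name equalled one of these symbols, which gave 11 of 30367 probes, with 2 probes each for S100a11 and S100b and 1 for each of the others. The genes were picked with results of these data in view, and S100a11 was picked for its level on the G2 diet without LPS, so its values in the groups behind that choice are given as a description. On the rn4 map of the array design, 8 of the 9 genes lay on chromosome 2 between positions 182784857 and 186654292, and S100b lay on chromosome 20.

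All animals were male Sprague-Dawley rats, aged 8 weeks at the start and fed for 6 weeks on a semi-synthetic diet without addition (G0), with high-molecular-weight oat beta-glucan (G1) or with low-molecular-weight oat beta-glucan (G2). Beta-glucans are cell wall polysaccharides of cereals. The control rats (C) received saline through the tail vein, and the LPS rats received 10 mg/kg of the bacterial endotoxin lipopolysaccharide by the same route, in each case as a pair of injections a week apart. This gave the 6 groups C-G0, LPS-G0, C-G1, LPS-G1, C-G2 and LPS-G2 with 4 arrays each, every array comparing whole blood RNA of 1 rat with a common reference. The array labels describe that reference as RNA of every rat in the study, whereas the study's methods describe a pool of rats from each group whose RNA was not put on the arrays as samples. For 2 of the 4 LPS-G0 arrays, replicates 3 and 4, the title named LPS while another label field read control.

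S100 proteins carry a pair of EF-hand loops, which bind calcium in most of the family, and act as dimers. S100a8 and S100a9 form calprotectin, an abundant cytosolic complex of neutrophils and monocytes that sequesters zinc and manganese when released and is used as a marker of inflammation. S100a10 joins annexin A2 at the cell membrane, S100a11 binds annexin A1, S100a4 binds non-muscle myosin, S100a6 binds the calcyclin-binding protein, and S100a13 takes part in the release of Fgf1. Secreted S100 proteins can signal through the receptors Ager and Tlr4.

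Because the genes are paralogs, 5 of the 11 probes, each of 60 bases, are printed for comparison: those of the calprotectin pair, the S100a6 and S100a1 probes with the longest shared run, and the dimmer S100a11 probe, which is not the one behind the S100a11 values unless stated. They are given as in the array files and 5′ to 3′, with capitals marking the longest run of bases that each shares with a probe of another of the 9 genes. The probes lay at chr2:182962328-182962387 on the plus strand (S100a8), chr2:182987647-182987706 on the minus strand (S100a9), chr2:186620424-186620483 on the plus strand (the dimmer S100a11 probe), chr2:182896129-182896188 on the plus strand (S100a6) and chr2:182784857-182784916 on the minus strand (S100a1), all in rn4.
S100a8: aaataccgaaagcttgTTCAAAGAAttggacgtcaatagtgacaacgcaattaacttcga
S100a9: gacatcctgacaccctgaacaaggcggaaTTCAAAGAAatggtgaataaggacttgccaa
S100a11: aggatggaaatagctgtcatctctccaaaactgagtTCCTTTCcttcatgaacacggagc
S100a6: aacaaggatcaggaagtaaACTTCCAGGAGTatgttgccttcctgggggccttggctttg
S100a1: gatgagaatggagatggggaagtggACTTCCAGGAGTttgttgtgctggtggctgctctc
The S100a8 and S100a9 probes shared a run of 9 bases, and the S100a6 and S100a1 probes shared a run of 12 bases. Over all 11 probes the longest shared run ranged from 7 to 12 bases. RefSeq lists 7 S100a11-like or S100a11 pseudogene symbols and 1 S100a10 pseudogene symbol in the rat, and hybridization of such copies to these probes was not measured.

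Values are log2 ratios of Cy3 (RNA of the rat) over Cy5 (the reference), so a value of 0 is the level of the pool. The array labels put the rats in Cy3, while the study's methods put them in Cy5, which is the opposite direction. Among 7074 probes that every array measured above background in Cy3 and Cy5 alike, the median SD within groups (log2) was 0.38 in Cy3 and 0.26 in Cy5, and 95.3% of them varied more in Cy3, so the direction of the labels was kept. Each array had 7786 to 15385 probes well above background in Cy3, and none saturated in that channel. The arrays lay on 3 slides of 8, each holding arrays of all 6 groups, and 4 arrays per group limit the precision of every value below.

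S100a8, S100a9, S100a11, S100a10, S100a4 and S100a6 had Cy3 signals well above background on all 24 arrays, and S100a13 was so on 23 of 24. These 7 genes passed the filter on dim probes and entered limma fits over 10313 probes (the 16 arrays of C-G0 and the 3 LPS groups) or 10708 probes (all 24 arrays). S100a1 was well above background in Cy3 on 6 of 24 arrays, and S100b on none with either probe, so neither was tested. None of these 7 genes passed the Benjamini-Hochberg adjusted p of 0.05 by limma in any comparison in which it was tested. In C-G2 vs. C-G0 none of them was tested, and S100a11 was not tested in any contrast with C-G0 or C-G2. Counts and calls of S100 genes below concern these 7. Between 0 and 3 genes per comparison with tests had an unadjusted p under 0.05, and those are named below.

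The lowest of the 6 group means was that of LPS-G0 for 5 of the 7 measured genes, S100a8, S100a9, S100a4, S100a10 and S100a13, and that of C-G0 for S100a11 and S100a6. Ordered by group mean, neighbouring groups of a gene were closer than the larger of their SDs in 32 of 35 pairs. The 3 wider gaps were those above LPS-G0 for S100a8, between LPS-G2 and C-G2 for S100a11, and between C-G0 and LPS-G2 for S100a13.

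**Figure D1:**
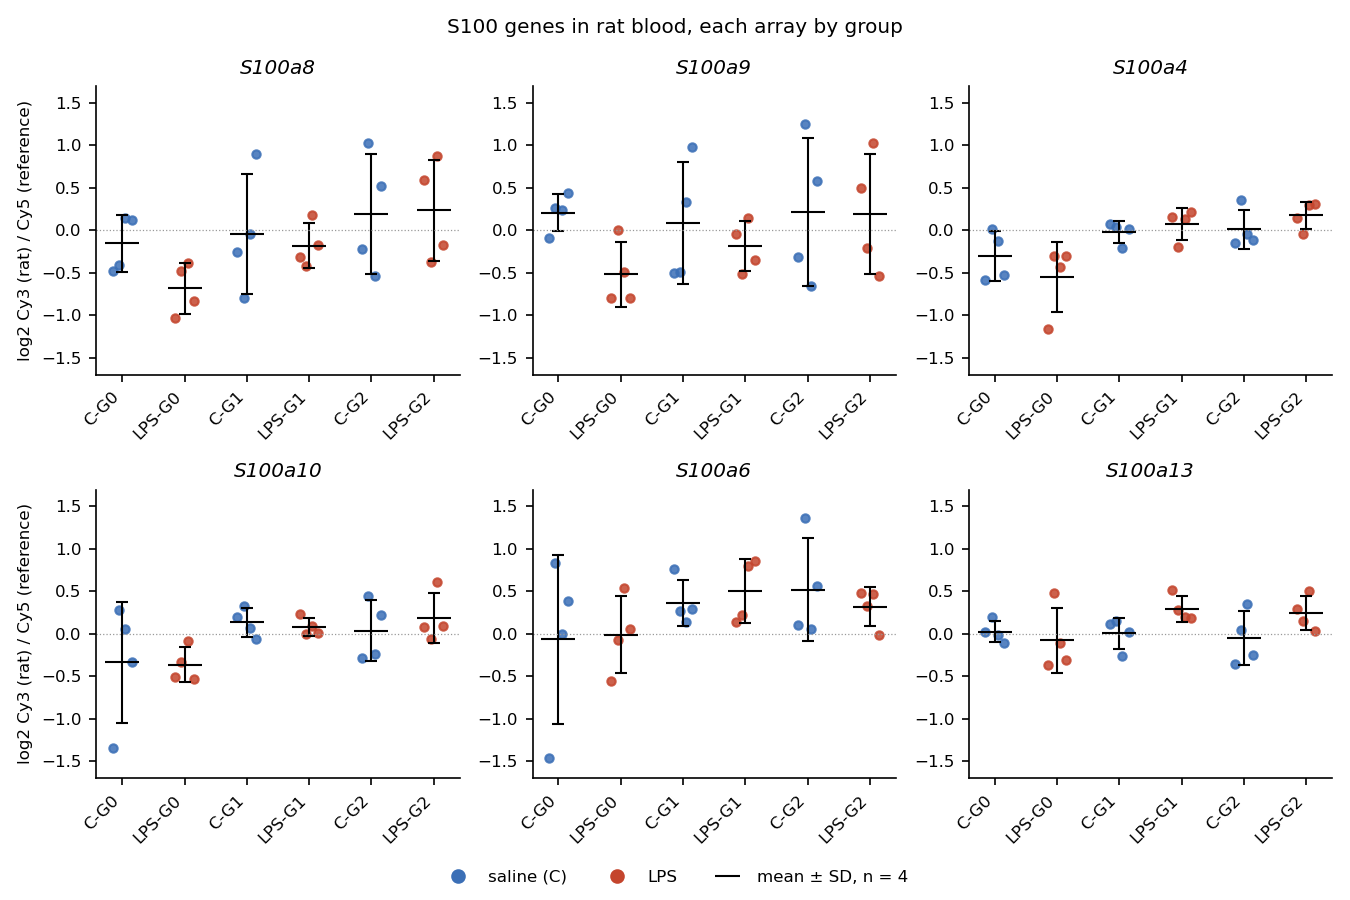
Log2 ratio of Cy3 (rat) over Cy5 (reference pool) on each array for 6 S100 genes, by group, with saline rats in blue, LPS rats in red and the mean ± SD of 4 arrays in black. The LPS-G0 arrays of S100a8 lie between -1.03 and -0.39. The lowest C-G0 array reads -1.34 for S100a10 and -1.46 for S100a6, with the next at -0.33 and -0.01.

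S100a8 and S100a9, the subunits of calprotectin, had their lowest group means in LPS-G0. S100a8 read -0.47, -0.41, 0.15 and 0.12 on the C-G0 arrays and -1.03, -0.48, -0.39 and -0.84 on the LPS-G0 arrays. The groups overlapped, the mean of LPS-G0 being -0.68 ± 0.30 (SD, n = 4) against -0.15 ± 0.33 (SD, n = 4) in C-G0. In LPS-G0 vs. C-G0 the log2 difference of S100a8 was -0.53 (SE 0.26, limma adjusted p = 0.343, exact permutation p = 0.114). S100a9 read -0.09, 0.26, 0.23 and 0.44 on the C-G0 arrays and -0.79, 0.01, -0.49 and -0.80 on the LPS-G0 arrays, which overlapped through 1 array of each group. Its log2 difference was -0.73 (SE 0.28), a 1.66-fold lower mean, with limma p = 0.0201, adjusted p = 0.258 and exact permutation p = 0.0571.

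In LPS-G0 vs. C-G0, S100a9 was the 1 gene of the 6 tested with an unadjusted limma p under 0.05, where 15.2% of all probes had one, 4.44% with LPS-G0 lower, and 0.0097% passed the adjusted p. Of the 7 measured genes 2 were higher and 5 lower in LPS-G0, with 53.5% of all probes higher, but S100a10 (-0.03), S100a6 (0.05) and S100a13 (-0.10) changed direction under some of the alternatives. The median log2 difference of the 7 genes was -0.10, beside 0.03 over all probes, and the arrays of no S100 gene were apart, against 5.04% of all probes. Within slides the S100a9 difference was -0.48, -0.73 and -1.23, and that of S100a8 was -0.31, -0.54 and -0.96, with 1 or 2 arrays of each group on a slide. Without LPS-G0 replicates 3 and 4, the arrays with conflicting labels, the S100a9 difference was -0.60 (adjusted p = 0.620).

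In LPS rats on the G2 diet both calprotectin genes averaged slightly above the pool. On the LPS-G2 arrays S100a8 read 0.60, -0.37, 0.88 and -0.17, every one of them above the highest LPS-G0 array at -0.39. The LPS-G2 mean was 0.23 ± 0.60 (SD, n = 4), and the log2 difference in LPS-G2 vs. LPS-G0 was 0.92 (SE 0.26), or 1.89-fold, with limma p = 0.00263, adjusted p = 0.597 and exact permutation p = 0.0286, the smallest that 4 against 4 arrays allow. S100a9 read 0.50, -0.20, 1.03 and -0.54 on the same arrays, which overlapped those of LPS-G0, and differed by 0.71 (SE 0.28, limma p = 0.0223, adjusted p = 0.597, exact permutation p = 0.143). The S100a9 difference was 0.44 without LPS-G2 replicate 3, which carried its highest value. On the slide with 1 array of each of the 2 groups the S100a8 difference was 0.02, beside 1.35 and 1.19 on the other slides.

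In LPS-G1 vs. LPS-G0 the S100a8 difference was 0.50 (SE 0.26, adjusted p = 0.227) and that of S100a9 was 0.33 (SE 0.28, adjusted p = 0.452) by limma, with overlapping arrays for both. On the LPS-G1 arrays S100a8 read -0.32, -0.42, 0.19 and -0.17, and S100a9 read -0.04, -0.51, 0.14 and -0.35. The saline rats on the beta-glucan diets spread most for this pair: S100a8 ranged from -0.79 to 0.90 in C-G1 and from -0.54 to 1.02 in C-G2, and S100a9 from -0.50 to 0.98 and from -0.66 to 1.25. Their SDs of 0.71 to 0.87 exceeded every difference between saline groups for these genes.

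Neutrophil markers were lowest in LPS-G0 among C-G0, LPS-G0 and LPS-G2. Of 15 markers on the list, 6 were tested, and Ltf, which encodes lactoferrin, was above background on no array. All 6 had lower means in LPS-G0 than in C-G0 (median -0.54, 3 with an unadjusted limma p under 0.05 as against 15.2% of all probes, none past the adjusted p), and all 6 had higher means in LPS-G2 than in LPS-G0 (median 0.66, 4 with an unadjusted p under 0.05 as against 8.23%, none past the adjusted p). Without C-G0 replicate 3 or without LPS-G0 replicate 1 the first count was 1, all 6 still having lower means. The mean log2 ratio of the 6 markers ranged from -0.13 to 0.15 over the C-G0 arrays, from -0.69 to -0.20 over LPS-G0 and from -0.09 to 0.44 over LPS-G2. Their summed Cy3 signal ranged from 1553 to 2346, from 1231 to 1556 and from 1368 to 2374 in these groups. Cytotoxic cell markers stood the other way, all 6 tested being higher in LPS-G0 than in C-G0 (median 0.98, 6 with an unadjusted limma p under 0.05 as against 15.2% of all probes, none past the adjusted p). Without C-G0 replicate 1 the median was 0.71 and the count 5, all 6 still being higher. All 6 were also higher than in C-G0 in the saline rats of C-G1 (median 0.62) and of C-G2 (median 0.65). Of the 6 neutrophil markers none was higher in C-G1 than in C-G0 (median -0.34), where S100a8 differed by 0.11 and S100a9 by -0.13. In LPS-G1 vs. LPS-G0 5 of the 6 neutrophil markers were higher (median 0.16), beside 0.50 for S100a8 and 0.33 for S100a9. In RNA of whole blood, fewer cells of a type and less RNA per cell cannot be told apart, and the part of neutrophil number in the S100a8 and S100a9 values was not tested.

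Across the 24 arrays S100a8 and S100a9 had a Pearson r of 0.91 and a Spearman rho of 0.80, and r was 0.92 after each group's mean was subtracted and 0.86 without the 2 arrays of most extreme S100a8. S100a8 and the mean of the 6 neutrophil markers had r = 0.84 (rho 0.78), and S100a9 and that mean had r = 0.78 (rho 0.73). With the mean of the 7 tested monocyte markers, r was 0.35 for S100a8 and 0.29 for S100a9. All these values share the arrays, their normalization and the reference pool, and are given as a description.

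**Figure D2:**
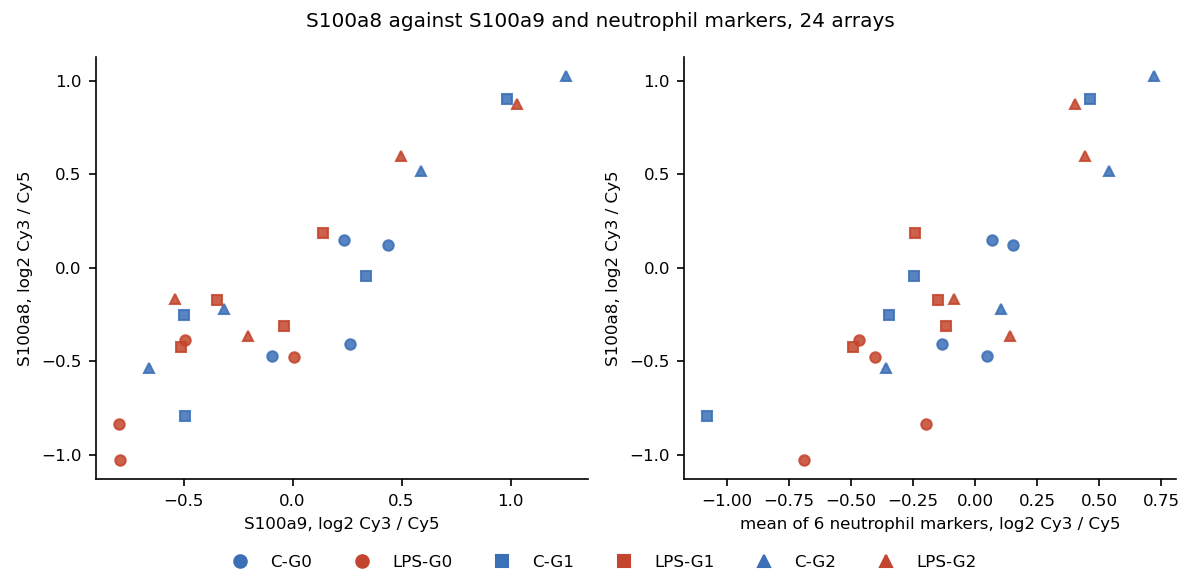
Log2 ratio of S100a8 against that of S100a9 (left) and against the mean of 6 neutrophil markers (right), 1 point per array, with blue for saline, red for LPS and the marker shape for the diet. The points follow a line with r = 0.91 and r = 0.84 over 24 arrays. For S100a8 and S100a9 the lowest array is of LPS-G0 and the highest of C-G2. The neutrophil mean runs from -1.08 on a C-G1 array to 0.72 on a C-G2 array.

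Among 7074 probes well above background on all 24 arrays, the genes whose log2 ratios were most like those of S100a8 were Ccl6 (r = 0.94), a chemokine of myeloid cells, Pla2g7 (r = 0.93), the plasma platelet-activating factor acetylhydrolase, S100a9 (r = 0.91), Nudt4 (r = 0.87) and Lrg1 (r = 0.86), a leucine-rich glycoprotein of neutrophil granules.

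S100a4 and S100a10, which bind myosin and annexin A2 inside the cell, had means in LPS-G0 below those in LPS rats on both beta-glucan diets, with no overlap of arrays. S100a4 read -1.16, -0.30, -0.44 and -0.30 on the LPS-G0 arrays, 0.16, -0.20, 0.13 and 0.22 on the LPS-G1 arrays and 0.14, -0.04, 0.30 and 0.31 on the LPS-G2 arrays. Every LPS-G1 and LPS-G2 array was above every LPS-G0 array. The group means were -0.55 ± 0.41, 0.08 ± 0.19 and 0.18 ± 0.16 (SD, n = 4 each). For both genes C-G0 had the next lowest mean after LPS-G0, at -0.31 ± 0.29 for S100a4 and -0.34 ± 0.72 for S100a10 (SD, n = 4 each). In LPS-G0 vs. C-G0 the S100a4 difference was -0.245 (SE 0.20, limma adjusted p = 0.586).

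In LPS-G1 vs. LPS-G0 the log2 difference of S100a4 was 0.63 (SE 0.20), or 1.55-fold, with limma p = 0.00569, adjusted p = 0.0567 and exact permutation p = 0.0286. This was the smallest adjusted p among the tests of the 7 genes here. Over 20 alternatives it ranged from 0.00991, with array weights, to 0.306. It went under 0.05 with 5 of them, among them normexp and loess (0.0346). When 1 array was left out it lay between 0.0636 and 0.175. In LPS-G2 vs. LPS-G0 the difference of S100a4 was 0.73 (SE 0.20), or 1.66-fold, with limma p = 0.00195, adjusted p = 0.597 and exact permutation p = 0.0286. LPS-G0 replicate 1 was the lowest S100a4 array of all, and without it the differences were 0.42 (adjusted p = 0.175) and 0.52 (adjusted p = 0.802). Within slides they were 0.89, 0.40 and 0.52 for the G1 diet and 0.87, 0.40 and 0.60 for the G2 diet. Both comparisons use the same LPS-G0 arrays. Erythroid markers had a median of -0.53 for LPS-G1 and -0.14 for LPS-G2 against LPS-G0, 2 and 3 of 9 being higher, and their part in the S100a4 values was not tested.

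S100a10 read -0.51, -0.33, -0.09 and -0.53 on the LPS-G0 arrays, all below those of LPS-G1 (0.24, -0.01, 0.09 and 0.01) and of LPS-G2 (0.08, -0.06, 0.61 and 0.10). Its log2 difference from LPS-G0 was 0.44 in LPS-G1 (SE 0.26, limma p = 0.110, adjusted p = 0.282) and 0.55 in LPS-G2 (SE 0.26, limma p = 0.0539, adjusted p = 0.597), with exact permutation p = 0.0286 in each. The gap between the nearest arrays was narrow, from -0.09 in LPS-G0 to -0.06 in LPS-G2. C-G0 replicate 1 read -1.34 for S100a10, against -0.33 to 0.28 on the other C-G0 arrays. Without that array S100a10 differed by -0.36 in LPS-G0 vs. C-G0 (-0.03 with it) and by 0.14 in C-G1 vs. C-G0 (0.47 with it).

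**Figure D3:**
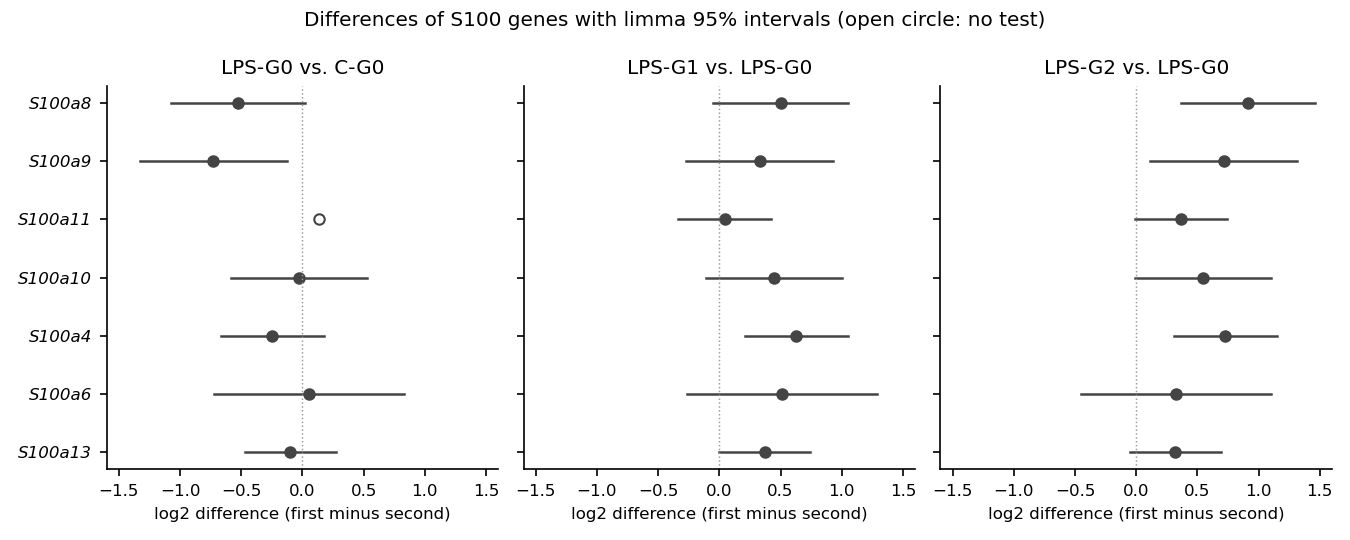
Log2 difference of each of 7 S100 genes (first group minus second) between LPS-G0 and C-G0 and between each LPS beta-glucan group and LPS-G0, with the 95% interval of limma as a line and an open circle where no test is given. All 7 points are above 0 in the 2 diet comparisons, from 0.04 to 0.63 and from 0.32 to 0.92, and all 3 comparisons share the LPS-G0 arrays.

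Over the family, all 7 measured genes were higher in LPS-G1 than in LPS-G0 with the probe shown, as were 55.4% of all probes. The median log2 difference was 0.44 beside 0.06 over all probes. S100a11 (0.04) changed direction under 3 of its 20 alternatives, and its dimmer probe gave -0.01. By limma 1 of 7 genes, S100a4, had an unadjusted p under 0.05 and none passed the adjusted p, where 26.9% of all probes did the first (7.59% with LPS-G1 higher) and 8.93% the second. The arrays of 2 genes, S100a4 and S100a10, did not overlap, as for 21.9% of all probes and 7.3% with LPS-G1 higher. In LPS-G2 vs. LPS-G0 all 7 genes were again higher, under each of the alternatives too, as were 47.4% of all probes, with a median of 0.55 beside -0.02. Here 3 of 7 genes, S100a8, S100a9 and S100a4, had an unadjusted limma p under 0.05, against 8.23% of all probes and 2.62% with LPS-G2 higher, and the arrays of S100a8, S100a4 and S100a10 did not overlap, against 10.5% and 2.81%. No probe of the array passed the adjusted p in that comparison, in which 0% of probes was called.

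In LPS-G2 vs. LPS-G1 no S100 gene passed the adjusted p or had an unadjusted limma p under 0.05, which 6.68% of all probes had, and 5 of 7 genes were higher in LPS-G2 (46.7% of all probes), or 6 of 7 with normexp and loess. No probe of the array passed the adjusted p there (0%). The 95% intervals were wide, and that of S100a8 was -0.13 to 0.96 around 0.42, and that of S100a4 was -0.32 to 0.52 around 0.10. The difference of the LPS effect between diets passed the adjusted p for none of the 6 S100 genes tested, nor for any probe (0%). S100a11 was not tested there. The LPS effect on G2 minus that on G0 was 0.57 for S100a8 (SE 0.48, limma adjusted p = 0.845) and 0.71 for S100a9 (SE 0.54, adjusted p = 0.836). None of the 6 had an unadjusted limma p under 0.05 for either beta-glucan diet, where 3.01% of probes had one for G1 and 5.57% for G2.

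S100a11, the partner of annexin A1, was higher in C-G2 than in C-G0 on every array. The brighter of its probes read -0.76, -0.27, -0.39 and -0.16 on the C-G0 arrays and 0.34, 0.32, 0.34 and 0.73 on the C-G2 arrays. The means were -0.39 ± 0.26 and 0.44 ± 0.20 (SD, n = 4 each), a log2 difference of 0.83 or 1.77-fold, which is a description, since the gene was chosen for it. The dimmer probe, whose sequence is printed above, gave -0.44 ± 0.19 and 0.69 ± 0.19 (SD, n = 4 each), a difference of 1.12 or 2.18-fold. The 2 probes had r = 0.92 over the 24 arrays (rho 0.85). Within slides the difference was 0.85, 0.72 and 0.69.

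In the other groups S100a11 averaged -0.26 in LPS-G0, -0.21 in LPS-G1, -0.15 in C-G1 and 0.11 in LPS-G2 with the brighter probe, and -0.09, -0.09, -0.17 and 0.22 with the dimmer one. In the order of the brighter probe's means, C-G0, LPS-G0, LPS-G1, C-G1, LPS-G2 and C-G2, each neighbouring pair but the last was closer than the larger of its SDs. On the LPS-G2 arrays it read 0.33, -0.27, 0.36 and 0.01, which overlapped the LPS-G0 arrays. In LPS-G2 vs. LPS-G0 it differed by 0.37 (SE 0.18, limma p = 0.0578, adjusted p = 0.597, exact permutation p = 0.0857). Neither group was behind the choice of the gene, but the C-G0 arrays entered the limma fit through its shared estimate of the spread. LPS-G2 was lower than C-G2 by 0.33 on the log2 scale, and over the 3 diets LPS rats differed from saline rats by -0.08, or by 0.04 over the G0 and G1 diets alone, again as descriptions.

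**Figure D4:**
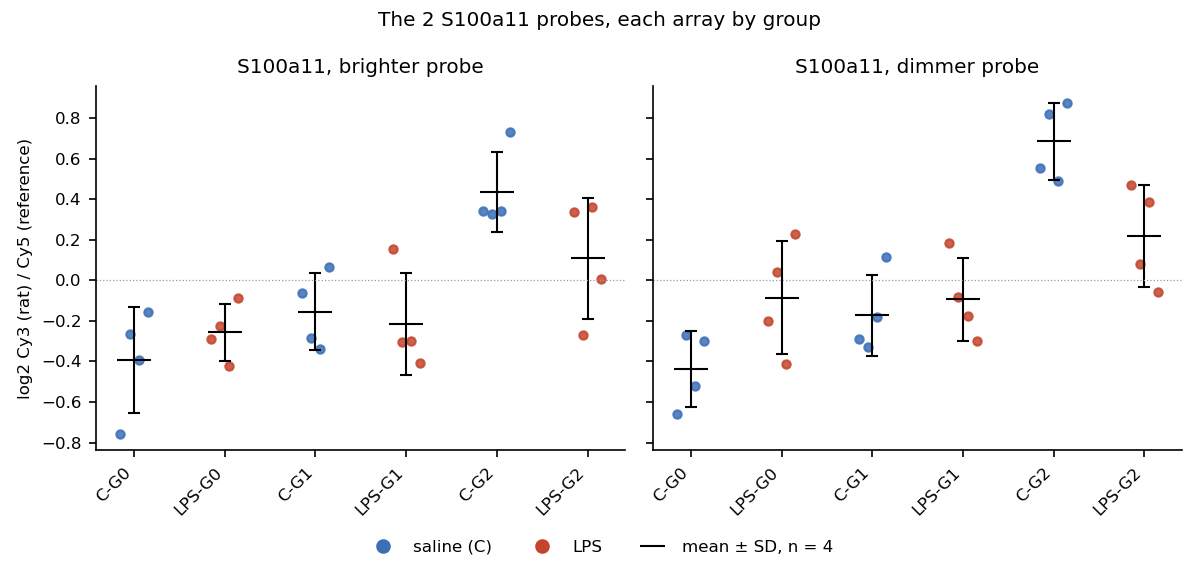
Log2 ratio of Cy3 (rat) over Cy5 (reference pool) on each array for the brighter (left) and the dimmer (right) S100a11 probe by group, with saline in blue, LPS in red and the mean ± SD of 4 arrays in black. C-G2 is the highest group with both probes, at 0.44 and 0.69, and none of its arrays reaches down to those of C-G0.

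In C-G2 vs. C-G0, the contrast behind the choice of S100a11, 6 of the 7 genes were higher (52.7% of all probes), S100a9 among them by 0.01 only, in a direction that some alternatives turned. The arrays of 1 gene, S100a11, did not overlap, as for 2.64% of all probes and 1.34% with C-G2 higher. The other differences were 0.35 for S100a8, 0.37 for S100a10, 0.32 for S100a4, 0.58 for S100a6 and -0.07 for S100a13, those of S100a10 and S100a6 being 0.04 and 0.12 without C-G0 replicate 1. Without C-G2 replicate 2 they were 0.07 for S100a8, 0.24 for S100a10, 0.20 for S100a4 and 0.30 for S100a6. Monocyte markers were at a median of 0.29 in the same contrast, 5 of 7 being higher, and cytotoxic cell markers at 0.65, 6 of 6 being higher. Neutrophil markers were at 0.23, 4 of 6 being higher, or at 0.02 without C-G2 replicate 2. Over the 24 arrays S100a11 had r = 0.54 (rho 0.52) with the neutrophil mean and r = 0.53 (rho 0.47) with the monocyte mean. With the cytotoxic mean it had r = 0.21 (rho -0.02). Without C-G0 replicate 1, whose mean cytotoxic log2 ratio was -1.65 against -0.54 to -0.06 on the other C-G0 arrays, the cytotoxic median was 0.35, and without C-G2 replicate 1 the monocyte median was 0.13. Their part in the S100a11 value was not tested. The genes most like S100a11 over the 24 arrays were LOC100362296 (r = 0.87), Fcer1g (r = 0.85), the common gamma chain of Fc receptors, Leprotl1 (r = 0.81), Fgr (r = 0.80), a myeloid Src-family kinase, and Slc16a3 (r = 0.79), a lactate transporter.

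S100a6, also called calcyclin, varied most between arrays of 1 group. It read -1.46, 0.83, -0.01 and 0.38 on the C-G0 arrays, an SD of 0.99. C-G0 replicate 1 carried the lowest value of this gene as it did of S100a10, and without that array the S100a6 difference went from 0.05 to -0.41 in LPS-G0 vs. C-G0 and from 0.43 to -0.04 in C-G1 vs. C-G0. The S100a6 means were 0.51 ± 0.38 in LPS-G1, 0.32 ± 0.23 in LPS-G2 and -0.01 ± 0.45 in LPS-G0 (SD, n = 4 each), and the differences from LPS-G0 were 0.51 (SE 0.37, adjusted p = 0.368) and 0.33 (SE 0.37, adjusted p = 0.794) by limma. S100a10 and S100a6 had r = 0.80 over the 24 arrays (rho 0.58) and S100a10 and S100a4 had r = 0.71 (rho 0.80). Among the marker means, S100a10 had r = -0.52 (rho -0.69) with the erythroid list, r = 0.53 (rho 0.40) with the B cell list and r = 0.40 (rho -0.02) with the cytotoxic list.

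S100a13, a gene of the non-classical secretion of Fgf1, read 0.52, 0.28, 0.20 and 0.19 on the LPS-G1 arrays and 0.11, 0.15, -0.26 and 0.02 on the C-G1 arrays. In LPS-G1 vs. C-G1 it was the 1 gene of 7 without overlap, as were 2.73% of all probes and 1.33% with LPS-G1 higher, with a difference of 0.29 (SE 0.18, limma p = 0.126, adjusted p = 0.950, exact permutation p = 0.0286). No S100 gene had an unadjusted limma p under 0.05 there, which 2.81% of all probes had, while 0.00934% passed the adjusted p, and 3 of 7 genes were higher (54.3% of all probes), or 4 of 7 with the Cy3 channel alone. Against LPS-G0, the S100a13 difference was 0.37 for LPS-G1 (SE 0.18, limma adjusted p = 0.189) and 0.32 for LPS-G2 (SE 0.18, limma adjusted p = 0.603). LPS-G0 replicate 2, at 0.48, was above all arrays of those groups but 1 of each. This was a dim probe, with a mean Cy3 signal of 149.

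In the remaining comparisons none of the 6 S100 genes tested passed the adjusted p or had an unadjusted limma p under 0.05, and S100a11 was not tested. In C-G1 vs. C-G0 5 of 7 genes were higher (51.4% of all probes), S100a10 by 0.47 (SE 0.25, adjusted p = 0.210), where 27.9% of all probes had an unadjusted p under 0.05 and 0.028% passed the adjusted p. In LPS-G2 vs. C-G2 4 of 7 genes were higher (52.8% of all probes), where 1.09% of all probes had an unadjusted p under 0.05 and 0% passed the adjusted p. Over the 3 diets, LPS rats differed from saline rats by -0.34 for S100a9 (SE 0.22, adjusted p = 0.617) and by -0.21 for S100a8 (SE 0.20, adjusted p = 0.744), and 3 of 7 genes were higher (53% of all probes), where 9.61% of all probes had an unadjusted p under 0.05 and 0.0187% passed the adjusted p. The direction held under every alternative for 3 genes in C-G1 vs. C-G0 (S100a11, S100a10 and S100a4), for 4 in LPS-G2 vs. C-G2 (S100a11, S100a10, S100a4 and S100a13) and for 3 over the 3 diets (S100a8, S100a9 and S100a13).

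S100a1, known from heart and skeletal muscle, had a mean Cy3 signal of 34.2, and the reference channel was above background on 23 of 24 arrays. Its 6 arrays above background were 2 of C-G0 and 1 each of LPS-G0, C-G1, LPS-G1 and C-G2, with none of LPS-G2, and no fold is given. S100b, a protein of glial cells, was not well above background in any group with either probe, its brighter probe having a mean Cy3 signal of 18.5. The array held 11 probes for 8 further S100 genes, S100a3, S100a5, S100a7a, S100a14, S100a16, S100g, S100vp and S100z. Of these, 1 gene, S100a5, passed the filter on dim probes, with 22 of 24 arrays above background for the brighter of its probes and none for the other. Its differences between groups are not given here. A further 4 genes were above background on no array.

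Among receptors of secreted S100 proteins, 4 of 8 were tested, and 1, Ager, passed the adjusted p in 1 comparison. Ager, the receptor for advanced glycation end products, fell in LPS-G1 vs. LPS-G0, where 8.93% of all probes passed, by 0.93 on the log2 scale (SE 0.20, limma adjusted p = 0.0289), from a mean of 0.27 ± 0.22 in LPS-G0 to -0.66 ± 0.32 in LPS-G1 (SD, n = 4 each). The Ager call was lost when any 1 array was left out except LPS-G0 replicate 3 or LPS-G1 replicate 1, the adjusted p then lying between 0.0595 and 0.104, and without LPS-G0 replicates 3 and 4 together (0.127). It was also lost with the Cy3 channel alone (adjusted p = 0.306), with all 24 arrays in the fit (0.105), with no filter on dim probes (0.0843) and in the methods' analysis of variance (0.149), and the slide block gave 0.0499. In saline rats Ager averaged -0.92 ± 0.84 in C-G1 and -0.17 ± 0.36 in C-G0 (SD, n = 4 each), without passing the adjusted p. Tlr2 differed by 0.58 (SE 0.16, limma adjusted p = 0.597) in LPS-G2 vs. LPS-G0. Tlr4, the LPS receptor, was above background on 1 of the 24 arrays and was not tested.

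Of 14 intracellular partners 11 were tested, and 2 passed the adjusted p, both in LPS-G1 vs. LPS-G0, where 8.93% of all probes did. Fgf1, the growth factor exported with S100a13, fell by 0.53 on the log2 scale (SE 0.14, limma adjusted p = 0.0331). Sugt1, a co-chaperone bound by S100a6, fell by 0.58 on the log2 scale (SE 0.17, adjusted p = 0.0418) with its brightest probe, but its difference was -0.09 (adjusted p = 0.698) as the mean of its tested probes. Leaving out 1 array ended both calls except for LPS-G0 replicate 3 and LPS-G1 replicate 1, with adjusted p up to 0.119 for Fgf1 and 0.122 for Sugt1. Both calls were also lost with the slide block (adjusted p = 0.0549 for Fgf1 and 0.0724 for Sugt1), without LPS-G0 replicates 3 and 4 together (0.127 and 0.129), with all 24 arrays in the fit (0.108 and 0.119), with no filter on dim probes (0.0858 and 0.116), with the Cy3 channel alone (0.317 and 0.315) and in the methods' analysis of variance (0.158 and 0.205). In the same comparison 3 of 9 erythroid markers, against the same 8.93%, fell past the adjusted p, Epb42 by 0.93, Klf1 by 0.81 and Gypc by 1.05 on the log2 scale. The mean log2 ratio of all 9 erythroid markers ranged from 0.12 to 0.29 over the LPS-G0 arrays and from -0.79 to -0.03 over LPS-G1. The erythroid count was 0 when any 1 array was left out except LPS-G0 replicate 3 (2) or LPS-G1 replicate 1 (3). In saline rats, Fgf1 averaged -0.37 ± 0.44 in C-G1 and 0.13 ± 0.19 in C-G0, and Sugt1 -0.41 ± 0.53 and 0.22 ± 0.38 (SD, n = 4 each). The erythroid median in C-G1 vs. C-G0 was -1.01, 1 of 9 being higher. There 5 had an unadjusted limma p under 0.05, as against 27.9% of all probes, and none passed the adjusted p. The part of the erythroid markers in the Ager, Fgf1 and Sugt1 values was not tested.

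In LPS-G2 vs. LPS-G0 5 of the 11 partners were higher with an unadjusted limma p under 0.05, as were 2.62% of all probes, and Sugt1 was lower with one, all 6 (against 8.23% in both directions) with an adjusted p of 0.597. Anxa2, the partner of S100a10, differed by 0.63 (SE 0.23) and read -0.69 ± 0.12 in LPS-G0 and -0.05 ± 0.09 in LPS-G2 (SD, n = 4 each). Ahnak, a scaffold bound by the S100a10 and annexin A2 complex, differed by 0.70 (SE 0.29), and Anxa1, the partner of S100a11, by 0.60 (SE 0.20). Cyba (0.61) and Ncf1 (0.59), subunits of the phagocyte oxidase to which S100a8 and S100a9 bind, were the other 2. Myh9, the myosin partner of S100a4, differed by 0.16 (SE 0.29, limma adjusted p = 0.878). Of 10 other EF-hand calcium sensors, all tested, none passed the adjusted p in any comparison, and their median in LPS-G2 vs. LPS-G0 was 0.15 beside -0.02 over all probes, 1 of them, Aif1, having an unadjusted limma p under 0.05.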

How the data were processed

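RNA was hybridized to Agilent rat 2-colour arrays against a pooled reference. The authors deposited one Feature Extraction output per array (version 10.7.3.1 in the submitters' processing notes, 10.10.1.1 in the file headers, probe map rn4), with background-corrected and dye-normalized Cy3 and Cy5 intensity and a log10 ratio of Cy5 over Cy3. The deposited series table held the same values (1511424 of 1511424 identical). The sign of the log10 ratio was turned and the value converted to log2. Control spots and spots with an outlier flag were left out, and spots of 1 probe were averaged. A probe was tested if it was well above background in Cy3 (at least 0.5 of its spots) on all arrays of at least 1 group. A gene was shown by its probe of highest mean Cy3 signal.

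Groups followed the labels. Tests used limma 3.58.1 in R 4.3.3 (two-sided, Benjamini-Hochberg over all probes) over 16 arrays for the 4 groups of the study's methods and over 24 arrays otherwise. Exact permutation tests enumerated the 70 arrangements of 4 against 4 arrays, where 0.0286 is the smallest p. The fit was tested on simulated data. Members, partner lists and marker lists were chosen with earlier results of these data known. Named were all 9 genes, their partners and the 5 genes most like S100a8 and S100a11. Contrasts with C-G2 or C-G0 are descriptions for S100a11, and C-G2 vs. C-G0 for all members. Alternatives were another background correction, the Cy3 channel alone, filters, blocks, array weights, a variance trend, probe means, other sets of arrays, the analysis of variance and Tukey's test of the methods, and leaving out arrays. Arrays were treated as unpaired, since in none of 8 comparisons did every same-numbered pair correlate above 0.1. Same-numbered arrays had mean correlations from -0.05 (LPS-G1 vs. LPS-G0) to 0.33 (C-G2 vs. C-G0), against 0.02 and -0.11 for other pairs there. Replicate numbers partly followed the slides, and neither was part of the main fits.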

Additional observations from a re-analysis of the deposited data

Results flagged for a closer look

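Of 42 sets of 4 arrays (7 genes in 6 groups), 2 held an array far from the other 3 by Dixon's ratio of gap to range (critical value 0.829), and chance gives about 1 in 20. S100a11 read 0.73 on C-G2 replicate 4 against 0.32 to 0.34 on the other C-G2 arrays, a ratio of 0.956, and without that array the C-G2 vs. C-G0 difference was 0.73. S100a4 read -1.16 on LPS-G0 replicate 1 against -0.44 to -0.30 on the other LPS-G0 arrays, a ratio of 0.843, and without it the S100a4 difference was 0.42 for LPS-G1 and 0.52 for LPS-G2, each against LPS-G0. The part of array quality in these values was not tested.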

How the results depend on the processing

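The number of S100 genes past limma's adjusted p was 0 in the main setting of each of 9 results, and it was 0 in 197 of 202 alternatives. The other 5 concerned LPS-G1 vs. LPS-G0. There 1 gene, S100a4, passed with normexp and loess, with probes above background on all arrays and with a variance trend. It also passed with the replicate block (adjusted p = 0.0488), the arrays being otherwise treated as unpaired. With array weights 2 genes, S100a4 and S100a10, passed. The S100a11 difference in C-G2 vs. C-G0 was 1.23 with the Cy3 channel alone and lay between 0.71 and 0.91 without 1 array. That channel alone moved the median of all probes in LPS-G1 vs. LPS-G0 from 0.06 to 0.12. The 5 S100 differences with an unadjusted p under 0.05 kept their direction in all 100 alternatives. Of 63 differences of single genes, 40 kept theirs in every alternative. The causes were not tested. Dim signal limits S100a13, S100a1 and S100b.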
